A study of Mus musculus with 64 samples.

Results

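The strain difference in the response of inguinal fat to rosiglitazone was taken from 16 of the 64 libraries of the series, in 4 of its 15 groups. Inguinal fat (iWAT), a subcutaneous depot, came from mice of the strain 129S1/SvlmJ (129) and of the strain C57BL/6J (B6). All 4 groups, treated and untreated, were on a diet labelled HFD, the usual short form of high-fat diet. The groups were 129 with the agent labelled rosi, the short form of rosiglitazone (n = 4), 129 with the agent labelled control (n = 4), B6 with rosi (n = 4) and B6 control (n = 4). The comparison was the rosi change in 129 minus the rosi change in B6, where each change is rosi minus control within a strain. A positive value therefore means that the rosi change of a gene lay higher in 129 than in B6. Libraries of rosi and control mice of 1 strain were sequenced in 1 lane, lane 4 for 129 and lane 3 for B6. Levels of 129 and B6 cannot be told apart from lane, whereas each rosi change was taken within a lane. The labels give no dose, duration, age or sex, and nothing in them says that the replicates of a group came from different mice. The p-values thus cover only the spread between these samples, which may be technical. Rosi and control libraries of the B6/129S1 F1 hybrid (F1) on a diet labelled LFD, the short form of low-fat diet (n = 5 each, another run), share no library with the 4 groups and are used at some points beside them.

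Rosiglitazone binds PPAR gamma, the nuclear receptor that drives adipocyte differentiation and lipid storage. In white fat, activation of this receptor is known to raise genes of lipid uptake, of mitochondria and, in some depots and strains, of heat production, among them Ucp1, the uncoupling protein of brown fat. The title of the series asks about Ucp1 in subcutaneous fat of C57BL/6 mice, and 129 mice are known for more brown-type adipocytes in white depots than B6 mice.

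The 16 libraries held 5334577 to 9551251 counts in genes, and 15918 to 17118 genes had at least 1 count. Of 18 white adipocyte and inguinal fat markers, 15 passed the filter on low counts, and the list summed to 35323 to 61586 CPM in a library (CPM is the count per gene scaled to a common library total). Strain labels were checked by genes with no count in 1 strain: 4 genes had at least 1 CPM in all 8 libraries of 129 and no count in the 8 of B6, and 2 genes were the other way round. Nnt, a gene with a known partial deletion in C57BL/6J, had reads in both strains, at 15.9 to 29.4 CPM in 129 and 8.16 to 17.3 CPM in B6. Some libraries stood apart. Skeletal muscle markers (22 genes) took 1.22, 0.0430, 0.345 and 0.369% of gene counts in 129 rosi, against 0.0137, 0.0497, 4.89 and 0.0113% in 129 control. They took 0.0106, 0.0140, 0.0143 and 0.114% in B6 rosi, against 0.0215, 0.0202, 0.0129 and 0.0351% in B6 control. Thus 129 control replicate 3 and 129 rosi replicate 1 carried the most muscle reads, and 0 to 3 of the 22 markers had no count in a library. The number of calls, the called genes, Ucp1 and the main gene lists are also given without these 2 libraries. Leaving them out did not balance the muscle reads. The 129 libraries left held 0.0430, 0.345 and 0.369% with rosi, against 0.0137, 0.0497 and 0.0113% in control. The median interaction of the muscle markers was -2.49 with all 16 libraries and 1.44 without these 2.

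In edgeR's quasi-likelihood test of 13267 genes, the rosi change differed between the strains for 14 genes at an adjusted p (Benjamini-Hochberg) under 0.05, which is 0.106% of the genes tested. The change lay higher in 129 for 12 of them (0.0904%) and lower for 2 (0.0151%). Genes with an unadjusted p under 0.05 numbered 1230 (9.27%), of which 591 (4.45%) lay higher and 639 (4.82%) lower. For the rosi change in 129 alone the number at an unadjusted p under 0.05 was 1232 (9.29%). The number of calls depended on the tool and on single libraries: DESeq2 called 101 genes, limma voom 65, and edgeR 26 without the 2 libraries rich in muscle reads. With each library left out in turn, edgeR called 43 genes without 129 rosi replicate 1, 54 without B6 rosi replicate 1 and 1 to 4 without any other library. Serpina3n was called in 16 of 16 such fits and the other 13 genes in 2 to 5 of them. The adjusted p of those 13 was 0.0446. Without the 2 libraries rich in muscle reads, 9 of the 14 were still called, and Trabd2b, Ugt1a6b, Mylk, Folh1 and Ugt1a6a had an adjusted p of 0.0507 to 0.0628.

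The 2 rosi changes themselves were unequal in extent. In B6, 941 genes rose (7.09% of those tested) and 709 fell (5.34%), and in 129, 24 rose (0.181%) and 15 fell (0.113%). The 39 calls of 129 became 35 without the 2 libraries rich in muscle reads, 105 without 129 rosi replicate 4, 73 without B6 rosi replicate 1, and 5 to 24 without 129 rosi replicate 2 or 3, 129 control replicate 1, 2 or 4, or B6 rosi replicate 3. The 1650 calls of B6 became 1044 without B6 rosi replicate 2 and 970 without B6 rosi replicate 4. In this shared fit the SD of log2 changes over genes was 0.319 in 129 and 0.434 in B6, while the median SE was 0.152 in both contrasts. Both contrasts use 1 estimate of spread per gene, so equal SEs do not show equal spread in the strains. In fits of the 8 libraries of each strain alone, the median SE was 0.148 in 129 and 0.137 in B6. The common coefficient of variation between replicates in those fits was 0.211 in 129 and 0.155 in B6. Of the 39 genes called in 129, 36 (92.3%) were also called in B6, with the same sign in 36 of 36, and these made up 2.18% of the genes called in B6. Across the 13267 genes, which are not independent replicates, the 2 changes had a Pearson r of 0.301 and a Spearman rho of 0.380. Rosi and control libraries did not overlap in CPM for 657 genes in 129 (4.95%) and 2445 in B6 (18.4%).

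**Figure D1:**
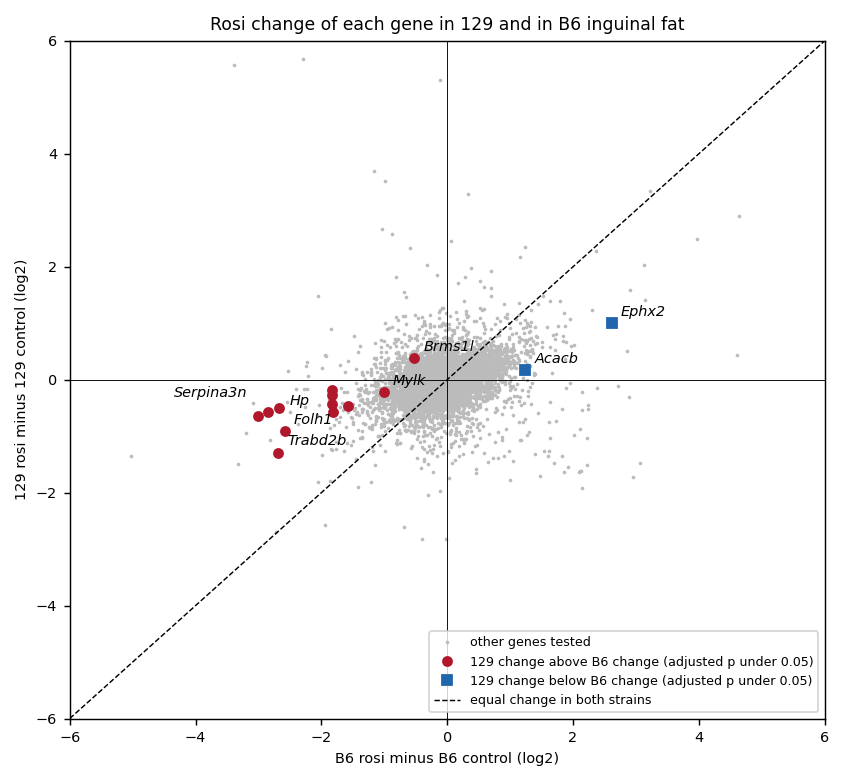
Log2 change with rosi in 129 (vertical axis) against that in B6 (horizontal axis) for 13267 genes, 1 point each; 1 gene lies outside the axes. Circles are the 12 genes whose change lay higher in 129 and squares the 2 whose change lay lower, and 13 of these 14 have the same sign in both strains and 1, Brms1l, has opposite signs.

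Promoters of 3 genes on which the results turn are shown as a base for reading them: Serpina3n, the gene with the lowest p, Acacb, 1 of the 2 genes with a smaller rise in 129, and Ucp1 of the series title. They run from 250 bases before to 50 bases after the start of the gene in RefSeq, build GRCm38.p6, 5′ to 3′ on the strand of the gene; 10 of the 15 genes (the 14 called and Ucp1) had an entry. Capitals mark matches to AGGTCA, the single binding site of nuclear receptors, on either strand.
Serpina3n (chr12:104406458-104406757, plus strand): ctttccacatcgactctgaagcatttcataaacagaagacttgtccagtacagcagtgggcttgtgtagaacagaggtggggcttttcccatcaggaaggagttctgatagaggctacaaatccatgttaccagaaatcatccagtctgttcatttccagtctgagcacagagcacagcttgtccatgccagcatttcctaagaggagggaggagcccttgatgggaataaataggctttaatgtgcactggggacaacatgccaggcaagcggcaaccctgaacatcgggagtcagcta
Acacb (chr5:114165268-114165567, plus strand): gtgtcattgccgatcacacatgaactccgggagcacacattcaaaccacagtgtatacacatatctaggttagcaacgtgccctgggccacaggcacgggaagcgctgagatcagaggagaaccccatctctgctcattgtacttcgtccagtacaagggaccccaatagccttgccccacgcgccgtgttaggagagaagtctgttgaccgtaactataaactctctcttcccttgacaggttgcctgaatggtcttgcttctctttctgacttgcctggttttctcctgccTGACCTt
Ucp1 (chr8:83290098-83290397, plus strand): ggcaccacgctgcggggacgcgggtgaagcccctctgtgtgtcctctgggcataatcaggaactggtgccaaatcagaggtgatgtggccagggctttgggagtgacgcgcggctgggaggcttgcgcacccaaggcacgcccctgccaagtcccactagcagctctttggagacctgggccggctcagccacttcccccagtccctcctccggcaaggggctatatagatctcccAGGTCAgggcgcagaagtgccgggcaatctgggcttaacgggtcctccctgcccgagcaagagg
The window of Acacb and that of Ucp1 hold 1 AGGTCA each, and that of Serpina3n holds none. Of 32851 promoter windows of this length, 16.3% hold AGGTCA on either strand. The full PPAR element AGGTCANAGGTCA, which contains that site, is in 0.0396% of windows and in none of these 3, and TTCNNNGAA, the palindrome bound by STAT factors, is in 8.30% and in none of these 3. A match is a description of letters, and its absence says only that these letters are not in the window.

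Of 13 tested genes of the acute phase, the set of plasma proteins whose output changes in inflammation, 6 fell in B6 (5.34% of all genes fell) and 1 in 129 (0.113%). Serpina3n, an extracellular inhibitor of serine proteases, stood at 407, 388, 393 and 480.0 CPM in 129 rosi, against 650.5, 739, 511 and 575 CPM in 129 control. Its values were 103, 54.1, 54.7 and 55.4 CPM in B6 rosi, against 429, 415, 561 and 515 CPM in B6 control. Groups did not overlap in either strain, and the rosi level was 0.674 times that of control in 129 (adjusted p = 0.266, not called) and 0.139 times in B6 (adjusted p = 4.59e-07). The difference between the log2 changes was 2.28 ± 0.26 (SE; adjusted p = 0.0021, edgeR), and under all 24 alternatives run it lay between 2.19 and 2.56 with an adjusted p of at most 0.0441. Serpina3n fell in F1 as well, by 2.66 ± 0.22 on the log2 scale.

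Hp, which encodes haptoglobin, the carrier of free haemoglobin, stood at 937, 966, 881 and 1704 CPM in 129 rosi, against 1460.4, 1893, 1509.8 and 1507 CPM in 129 control. In B6 mice, Hp was at 859, 475, 477 and 423 CPM under rosi, against 2641, 2499.9, 4988 and 4176 CPM in control mice. The 129 groups overlapped through rosi replicate 4, and the B6 groups did not overlap. The log2 change was -0.51 ± 0.26 in 129 and -2.68 ± 0.28 in B6, a difference of 2.17 ± 0.38 (adjusted p = 0.0446). Serpina3m, a neighbour of Serpina3n in the same inhibitor family, had 8.35, 7.49, 6.52 and 12.5 CPM in 129 rosi, against 15.9, 14.99, 10.6 and 13.7 CPM in 129 control. It was low in B6 rosi, at 1.27, 1.33, 0.921 and 0.756 CPM, against 7.46, 5.89, 11.9 and 8.89 CPM in B6 control. Here too the 129 groups overlapped and the B6 groups did not, and the difference was 2.36 ± 0.39 (adjusted p = 0.0446). Of the stretches of 50 bases in Serpina3m transcripts, 19.1% also occur in other genes, mostly Serpina3k, and 6.90% of those of Serpina3n do, so a part of these reads could belong to paralogs.

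Of 22 acute phase genes in the files, 13 passed the filter on low counts. Their median log2 change was -0.51 in 129 and -0.73 in B6, against -0.01 and -0.02 over all genes tested, and the interaction was called for 2 of them, Serpina3n and Hp. At an unadjusted p under 0.05, 4 were lower (4.48% of all genes) and 1 higher (4.8%) with rosi in 129. At that threshold, 5 interactions lay higher (4.45% of all genes) and 1 lower (4.82%). The lower was that of Orm3, an orosomucoid, at -1.93, the lowest of the list (named after its value was seen). Saa3, an acute phase apolipoprotein, had 0, 0.562, 0.391 and 1.14 CPM in 129 rosi, against 0.569, 1.41, 1.996 and 1.63 CPM in 129 control. It had 0.364, 0.759, 0 and 0.324 CPM in B6 rosi, against 7.89, 6.77, 23.4 and 10.6 CPM in B6 control. The B6 control libraries were the high ones, and the interaction of Saa3 was not called (3.67 ± 1.02, adjusted p = 0.247).

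Ephx2 and Acacb were the 2 genes whose rise was called as smaller in 129. Ephx2, the soluble epoxide hydrolase that opens fatty acid epoxides, stood at 683, 792, 543 and 319 CPM in 129 rosi, against 284, 292, 316 and 276 CPM in 129 control. With rosi it reached 1423, 1826, 1662 and 1818 CPM in B6, against 276, 265, 292 and 268 CPM in B6 control. Control libraries of the 2 strains lay in 1 range, no rosi library overlapped its controls, and 129 rosi replicate 4 came closest to them. Ephx2 rose in both strains, by log2 1.0001 ± 0.19 in 129 (adjusted p = 0.0349) and 2.61 ± 0.20 in B6 (interaction -1.61 ± 0.27, adjusted p = 0.0446). Acacb, the acetyl-CoA carboxylase whose product restrains the entry of fatty acids into mitochondria, was at 197, 217, 179.8 and 139 CPM in 129 rosi, against 153, 139, 173 and 186 CPM in 129 control. Acacb had 224, 225, 185 and 216 CPM in B6 rosi, against 77.2, 101, 94.5 and 87.0 CPM in B6 control. The 129 groups overlapped, and the B6 control libraries were the lowest of the 4 groups. Its log2 change was 0.17 ± 0.13 in 129 and 1.24 ± 0.13 in B6 (interaction -1.07 ± 0.19, adjusted p = 0.0446). In F1, Ephx2 rose by 2.02 ± 0.14 and Acacb by 1.502 ± 0.23 on the log2 scale.

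Trabd2b, Folh1 and Slc2a13 act at the cell membrane. Trabd2b, a metalloprotease that trims Wnt proteins, stood at 20.6, 18.5, 19.3 and 27.6 CPM in 129 rosi, against 43.1, 56.6, 47.0 and 64.6 CPM in 129 control. It was at 12.4, 7.02, 10.1 and 7.56 CPM in B6 rosi, against 65.1, 54.3, 61.1 and 57.0 CPM in B6 control. Trabd2b fell in both strains with no overlap, with log2 changes of -1.29 ± 0.17 in 129 (adjusted p = 0.0041) and -2.69 ± 0.18 in B6 (interaction 1.40 ± 0.24). Folh1, a peptidase that removes glutamate from folates, had 66.95, 57.7, 53.7 and 85.6 CPM in 129 rosi, against 135, 166, 96.5 and 101 CPM in 129 control. It had 3.46, 4.55, 2.58 and 3.35 CPM in B6 rosi, against 18.9, 24.7, 17.0 and 22.6 CPM in B6 control. Folh1 fell in both, to 0.531 times the control level in 129 and 0.167 times in B6 (interaction 1.67 ± 0.30). Slc2a13, a carrier of myo-inositol, had 22.4, 31.1, 27.9 and 29.5 CPM in 129 rosi, against 45.2, 39.9, 34.9 and 34.0 CPM in 129 control. Slc2a13 had 19.7, 20.7, 14.7 and 15.2 CPM in B6 rosi, against 51.2, 54.9, 59.5 and 43.4 CPM in B6 control. Neither strain overlapped, and the interaction was 1.11 ± 0.20. These 3 genes had an adjusted p of 0.0446 for the interaction, and all 3 fell in F1, with log2 changes of -3.12 ± 0.25 for Trabd2b, -4.07 ± 0.39 for Folh1 and -3.11 ± 0.26 for Slc2a13.

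Rgs5, Mylk and Lamb3 are genes of vessel walls and basement membranes. Rgs5, a brake on G protein signalling found in pericytes, stood at 49.0, 52.5, 66.1 and 80.6 CPM in 129 rosi, against 88.2, 105, 83.9 and 91.6 CPM in 129 control. Rgs5 was at 53.9, 66.2, 75.9 and 52.1 CPM in B6 rosi, against 257, 231, 190.3 and 195 CPM in B6 control. Rgs5 groups did not overlap in either strain. The B6 control libraries were the high group, both rosi groups lay in 1 range, and the 129 control libraries lay between. Mylk, the kinase of myosin light chains in smooth muscle, had 69.4, 58.8, 76.0 and 83.3 CPM in 129 rosi, against 85.4, 88.7, 74.6 and 85.7 CPM in 129 control. Mylk had 83.5, 83.8, 86.6 and 91.5 CPM in B6 rosi, against 177, 185, 182 and 151 CPM in B6 control. For Mylk the 129 groups overlapped, and the B6 control libraries alone lay above the rest. Lamb3, a laminin chain of epithelial basement membranes, was at 7.64, 8.06, 7.04 and 7.98 CPM in 129 rosi, against 11.96, 10.8, 8.73 and 10.1 CPM in 129 control. Lamb3 was at 4.55, 6.07, 4.05 and 5.07 CPM in B6 rosi, against 18.1, 13.7, 18.8 and 19.9 CPM in B6 control. Lamb3 did not overlap in either strain. The interactions were 1.25 ± 0.22 for Rgs5, 0.79 ± 0.14 for Mylk and 1.40 ± 0.22 for Lamb3 (adjusted p = 0.0446 each). In F1, Rgs5 fell by 1.21 ± 0.16, while Mylk at -0.03 ± 0.09 and Lamb3 at 0.31 ± 0.22 were not called.

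Ugt1a6a and Ugt1a6b encode enzymes that add glucuronic acid to small molecules. Ugt1a6b had 25.2, 23.0, 14.0 and 18.5 CPM in 129 rosi, against 24.9, 24.0, 18.7 and 24.1 CPM in 129 control. It had 5.28, 2.66, 4.79 and 3.24 CPM in B6 rosi, against 12.2, 16.3, 12.9 and 14.7 CPM in B6 control. The 129 groups overlapped and the B6 groups did not. Ugt1a6a ran from 16.2 to 25.0 CPM in 129 rosi and 20.8 to 28.9 CPM in 129 control, and from 2.66 to 5.46 CPM in B6 rosi and 11.2 to 16.3 CPM in B6 control. The interactions were 1.64 ± 0.29 for Ugt1a6b and 1.55 ± 0.28 for Ugt1a6a (adjusted p = 0.0446 each), but the 2 genes are not separate results. They are known to share exons, and 79.8% of the 50-base stretches of Ugt1a6b and 52.1% of those of Ugt1a6a occur in other genes. Brms1l, a subunit of a histone deacetylase complex, was the 1 called gene with opposite signs. It had 17.4, 24.0, 20.2 and 21.9 CPM in 129 rosi, against 14.99, 17.1, 18.2 and 14.0 CPM in 129 control. Brms1l had 14.0, 15.4, 15.5 and 16.4 CPM in B6 rosi, against 24.1, 22.7, 21.7 and 19.99 CPM in B6 control. The 129 groups overlapped, Brms1l fell in B6 (log2 -0.53 ± 0.12, adjusted p = 0.0073), and the interaction was 0.90 ± 0.16 (adjusted p = 0.0446).

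Over the 14 genes, rosi and control libraries did not overlap for 7 in 129 (4.95% of all genes) and 14 in B6 (18.4%). Their rosi change in F1 was called for 11 (37.8% of all genes were), and in 11 of these it had the sign of the change in B6. That sign was also the one in 129, so it does not place F1 nearer to either strain. Since the interaction and the B6 change share libraries, the size of the B6 change of these 14 genes is a description and no separate result.

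**Figure D2:**
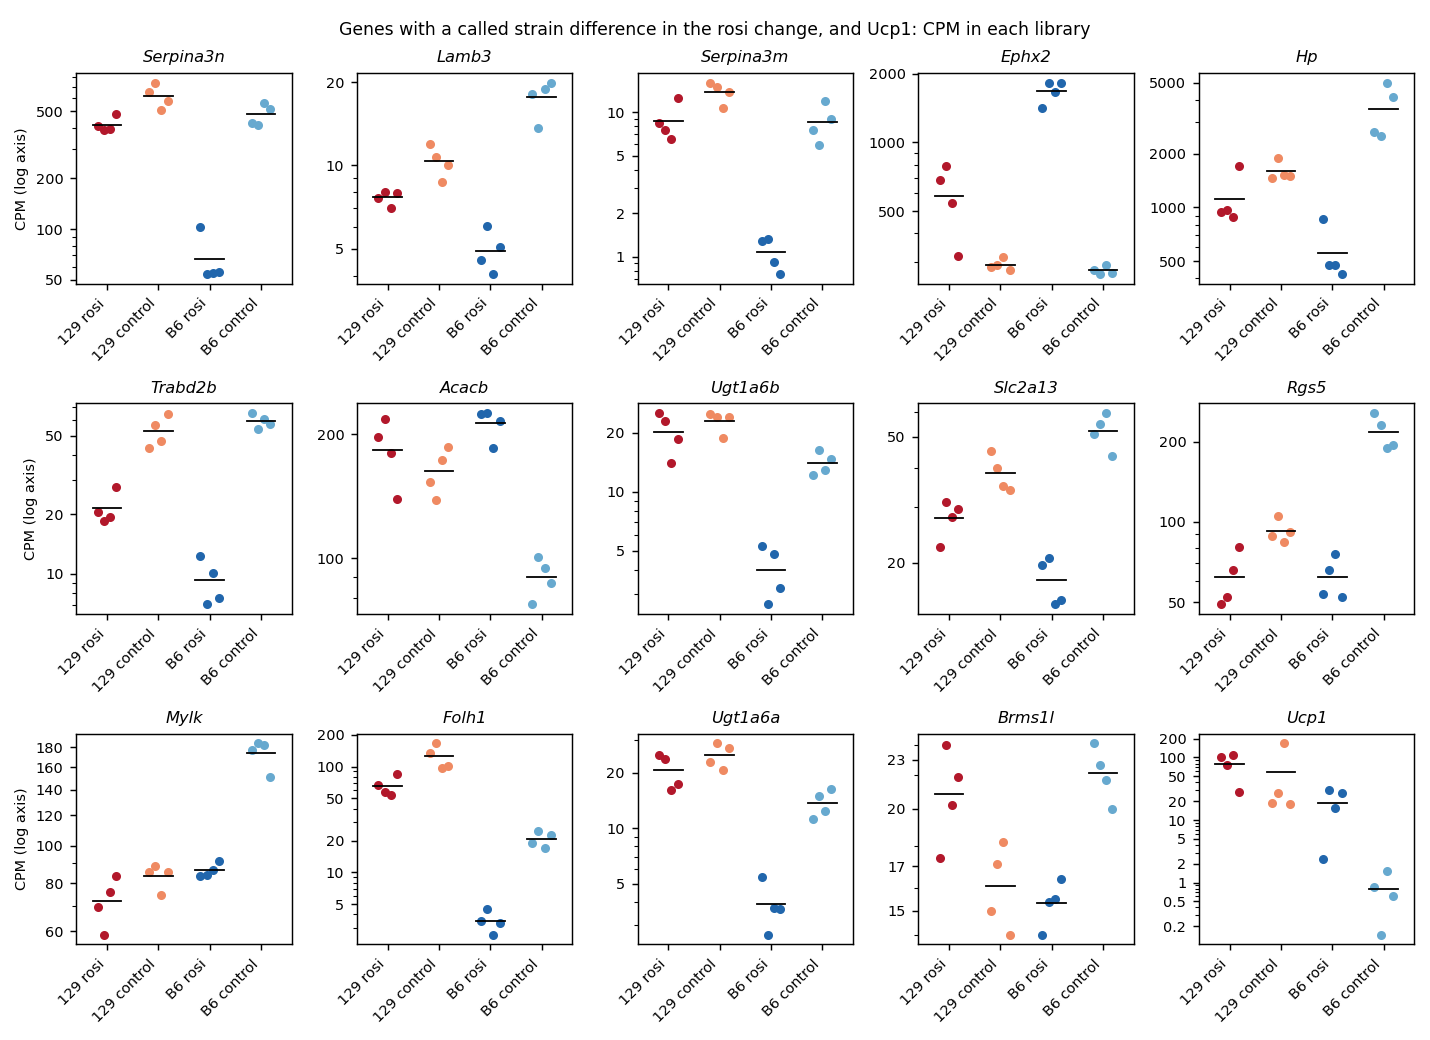
CPM on log axes in each of the 16 libraries for the 14 genes with a called interaction and for Ucp1; points are libraries, the bar is the mean of 4, and groups run 129 rosi, 129 control, B6 rosi, B6 control. Serpina3n lies between 388 and 480.0 CPM in 129 rosi and between 54.1 and 103 CPM in B6 rosi, while its control groups lie between 415 and 739 CPM.

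Below the 2 called genes with a lower change in 129, the 8 genes next in order of p were not called. Adh1, an alcohol and retinol dehydrogenase, stood at -0.90 ± 0.17 (adjusted p = 0.0537), Chrna2, a nicotinic receptor subunit of beige fat, at -1.74 ± 0.35 (0.0786), and Irs3, an insulin receptor substrate of rodent fat, at -1.29 ± 0.26 (0.0786). Crat, which moves acetyl groups onto carnitine, had -0.83 ± 0.17, Agpat3, a phosphatidic acid acyltransferase, -0.76 ± 0.16, and Oplah, the oxoprolinase of the glutathione cycle, -0.86 ± 0.19. Cyp2u1, a fatty acid hydroxylase, had -1.13 ± 0.25 and Tecr, which ends each round of very long chain fatty acid elongation, -0.68 ± 0.15, with adjusted p between 0.0829 and 0.108 for these 5. Chrna2 was at 13.3, 10.7, 7.56 and 6.84 CPM in 129 rosi, against 3.98, 3.70, 3.12 and 3.54 CPM in 129 control. Chrna2 was at 27.3, 35.3, 39.1 and 34.5 CPM in B6 rosi, against 3.44, 2.06, 4.58 and 5.18 CPM in B6 control. It rose in both strains with no overlap, by log2 1.41 ± 0.25 in 129 (adjusted p = 0.0282) and 3.15 ± 0.24 in B6. Chrna2 does not stand for the other beige fat markers. Of 9 tested, 3 rose and 2 fell in B6 (7.09% and 5.34% of all genes). In 129, 2 rose and 1 fell (0.181% and 0.113%). Their median interaction was -0.19, with 5 of 9 below 0, against 50.9% of all genes. Irs3 was at 44.0, 21.7, 23.9 and 24.2 CPM in 129 rosi, against 28.1, 25.4, 25.7 and 27.6 CPM in 129 control. Irs3 was at 40.9, 60.5, 47.5 and 39.8 CPM in B6 rosi, against 19.9, 16.9, 18.3 and 17.4 CPM in B6 control. Its 129 groups overlapped and its B6 groups did not. Without the 2 libraries rich in muscle reads, edgeR called 5 of these 8 genes. Irs3 had -1.59 (adjusted p = 0.0062), Adh1 -1.09 (0.0070), Chrna2 -2.003 (0.0477), Crat -0.91 (0.0477) and Agpat3 -0.83 (0.0477). One of these libraries, 129 rosi replicate 1, also held the highest Irs3 and Chrna2 of its group. Without it alone edgeR called 43 interactions, so these added calls cannot be tied to muscle reads, whose part was not tested.

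Ucp1 had 102, 77.0, 111 and 27.9 CPM in 129 rosi, against 18.8, 26.6, 169 and 17.8 CPM in 129 control. It had 2.37, 30.2, 15.3 and 27.2 CPM in B6 rosi, against 0.860, 0.147, 1.53 and 0.617 CPM in B6 control. The B6 groups did not overlap, and the 129 groups overlapped through control replicate 3, the highest of all 16 libraries and the one richest in muscle reads. Ucp1 rose in B6 by log2 4.61 ± 1.13 (adjusted p = 0.0131), and its change in 129 was 0.43 ± 0.66 (adjusted p = 0.915). The difference of -4.18 ± 1.36 was not called (adjusted p = 0.326, edgeR; 0.0743 to 0.618 over the alternatives), and an interval this wide leaves its size poorly fixed. Without 129 control replicate 3 it was -2.70, and without both libraries rich in muscle reads -2.84. Among rosi libraries, 129 replicates 1 to 3 lay above all of B6 and 129 replicate 4 below the highest of B6. The part of the muscle reads in the value of 129 control replicate 3 was not tested.

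Of 34 thermogenic genes of brown fat, 27 passed the filter. In B6 11 rose (7.09% of all genes) and 1 fell (5.34%). In 129 edgeR called 0 as higher and 1 as lower, with 5 higher (4.8% of all genes) and 4 lower (4.48%) at an unadjusted p under 0.05, while DESeq2 called 2 higher and limma voom 0. Their median log2 change was 0.02 in 129 and 0.87 in B6, with a median interaction of -0.83 and 22 of 27 below 0, against 50.9% of all genes. The median interaction was -0.59 without 129 control replicate 3 and -0.67 without both libraries rich in muscle reads. edgeR called 0 of the 27 interactions, with 10 at an unadjusted p under 0.05, all lower in 129 (4.82% of all genes); DESeq2 called 2 and limma voom 1. Ppara, the fatty acid receptor of oxidative tissues, had 43.2, 31.3, 23.2 and 23.8 CPM in 129 rosi, against 29.8, 28.9, 53.1 and 37.3 CPM in 129 control. Ppara had 28.4, 43.6, 44.2 and 28.7 CPM in B6 rosi, against 20.4, 18.3, 11.7 and 14.2 CPM in B6 control. It rose in B6 with no overlap (log2 1.16 ± 0.25, adjusted p = 0.0060) and overlapped in 129 (interaction -1.47 ± 0.35, adjusted p = 0.137). Ucp3, an uncoupling protein abundant in muscle, had an interaction of -1.47 ± 0.40 and Plin5, a droplet coat protein that ties droplets to mitochondria, -1.36 ± 0.42 (adjusted p = 0.233 and 0.287). Without the 2 libraries rich in muscle reads, these values were -1.46 for Ppara (adjusted p = 0.0557), -1.48 for Ucp3 (0.140) and -1.19 for Plin5 (0.289).

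Genes of mitochondrial fuel use had smaller median changes in 129 than in B6 over whole lists, and edgeR called the interaction of no member. Of 36 genes of complex I, which takes electrons from NADH, 34 rose in B6 (7.09% of all genes). In 129 edgeR called 0, with 6 higher at an unadjusted p under 0.05 (4.8% of all genes), and calls numbered 1 with DESeq2 and 0 with limma voom. Rosi and control libraries did not overlap for 0 genes in 129 (4.95% of all genes) and 30 in B6 (18.4%). The median log2 change was 0.16 in 129 and 0.69 in B6, and the interaction lay below 0 for 36 of 36. Of 39 nuclear genes of complexes II to V, 36 rose in B6, and in 129 edgeR, DESeq2 and limma voom called 0, with 6 higher at an unadjusted p under 0.05. The medians were 0.22 in 129 and 0.75 in B6, with 39 of 39 interactions below 0. In each of these 2 lists the interaction was at an unadjusted p under 0.05 for most members, 26 of 36 and 27 of 39 (9.27% of all genes). DESeq2 called 1 of complex I and 0 of the others, and limma voom 2 and 0.

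Of 32 genes of pyruvate oxidation and the TCA cycle, 27 rose in B6 (7.09% of all genes). In 129 the 3 tools called 0, with 11 higher at an unadjusted p under 0.05 (4.8% of all genes). The medians were 0.22 in 129 and 0.74 in B6, with 20 interactions at an unadjusted p under 0.05 (9.27% of all genes). Sucla2, a subunit of succinyl-CoA ligase, stood at 230.2, 227, 186 and 131 CPM in 129 rosi, against 163, 181, 210.1 and 138 CPM in 129 control. It stood at 393, 637, 601 and 644 CPM in B6 rosi, against 258, 210.3, 243 and 224 CPM in B6 control. The 129 groups overlapped and the B6 groups did not (interaction -1.12 ± 0.26, adjusted p = 0.128). Of 30 fatty acid oxidation genes, 26 rose in B6. In 129 edgeR called 0, with 14 higher at an unadjusted p under 0.05, and calls numbered 4 with DESeq2 and 2 with limma voom. The medians were 0.30 in 129 and 0.88 in B6, with 24 interactions at an unadjusted p under 0.05. DESeq2 called 6 of these interactions and limma voom 4, each lower in 129. Ehhadh, the bifunctional enzyme of peroxisomal oxidation, had 81.0, 95.4, 63.3 and 50.2 CPM in 129 rosi, against 49.0, 43.0, 57.1 and 51.3 CPM in 129 control. Ehhadh had 111, 183, 161 and 209 CPM in B6 rosi, against 58.5, 55.2, 43.1 and 46.4 CPM in B6 control. The control groups shared a range, and with rosi the lowest B6 library exceeded the highest of 129 (interaction -1.19 ± 0.28, adjusted p = 0.131).

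The fuel lists varied within the rosi groups. The mean log2(CPM + 1) of the fatty acid oxidation genes was 8.11, 8.03, 7.83 and 7.54 in 129 rosi, against 7.51, 7.62, 7.65 and 7.56 in 129 control. It was 8.06, 8.53, 8.39 and 8.48 in B6 rosi, against 7.58, 7.40, 7.45 and 7.45 in B6 control. In 129, rosi replicate 4 lay within the control range and replicates 1 to 3 above it, and in B6, rosi replicate 1 was the lowest of its group. Leaving out libraries in turn gave median interactions of -0.72 to -0.51 for fatty acid oxidation, -0.62 to -0.41 for complex I, -0.69 to -0.41 for complexes II to V and -0.62 to -0.39 for the TCA cycle. The value nearest to 0 for fatty acid oxidation and complex I came without 129 rosi replicate 4. Without both libraries rich in muscle reads, the medians were -0.53 for complex I, -0.61 for complexes II to V, -0.60 for the TCA cycle and -0.69 for fatty acid oxidation. Muscle reads stayed unequal between the 129 libraries left, and their part in these medians was not tested. Mitochondrial ribosomal proteins, which translate the genes of mitochondrial DNA, showed smaller values. In B6 27 of 73 rose (7.09% of all genes). The 3 tools called 0 in 129, with 8 higher at an unadjusted p under 0.05 (4.8% of all genes). The medians were 0.11 in 129 and 0.40 in B6. Tissue RNA was measured in bulk, so fewer cells of a type and less RNA per cell cannot be told apart here or in the lists below.

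**Figure D3:**
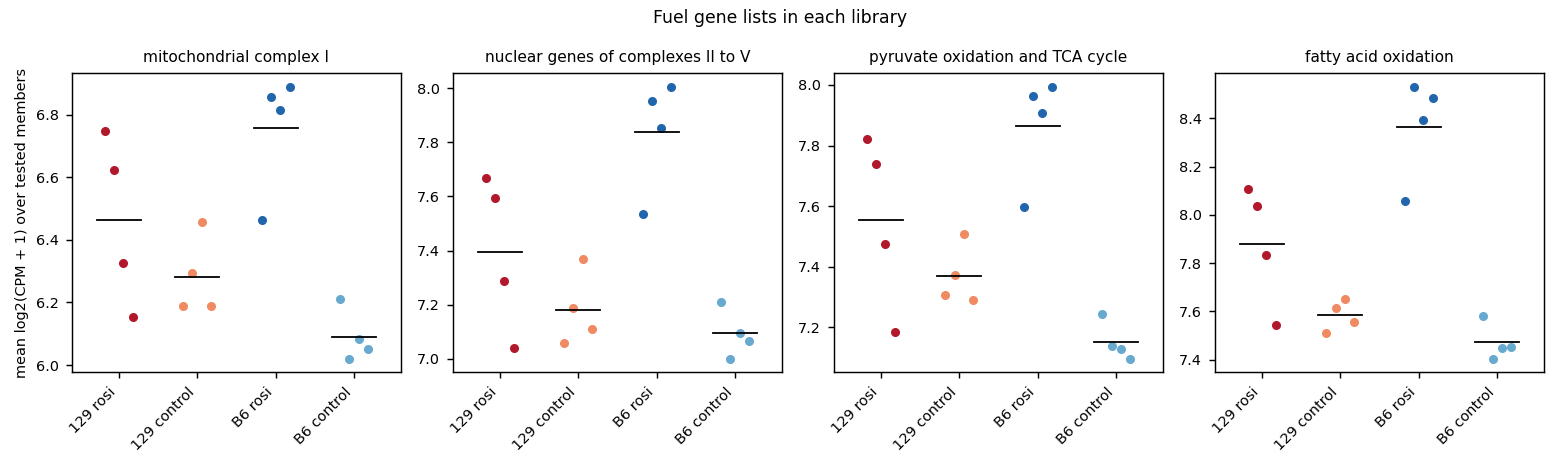
Mean log2(CPM + 1) over the tested genes of 4 fuel lists in each library; points are libraries and the bar is the mean of 4. For fatty acid oxidation the 129 rosi libraries spread from 7.54 to 8.11 and reach into the control range, while those of B6 rosi, 8.06 to 8.53, lie above all B6 control libraries.

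Lipid storage genes had a median interaction of -0.20, which was -0.32 without 129 rosi replicate 1 and -0.35 without both libraries rich in muscle reads. Of 33 PPAR gamma targets and lipid storage genes, 18 rose (7.09% of all genes) and 1 fell (5.34%) in B6, and 1 rose in 129 (0.181%). In 129, 18 were higher at an unadjusted p under 0.05 (4.8% of all genes), DESeq2 called 9 as higher and limma voom 3. The list had medians of 0.30 in 129 and 0.59 in B6. Rosi and control libraries did not overlap for 11 of the 33 in 129, against 4.95% of all genes, and 20 in B6, against 18.4%. The interaction was at an unadjusted p under 0.05 for 10 lower (4.82% of all genes) and 1 higher (4.45%). Pnpla2, the lipase that starts triglyceride breakdown, stood at 1331, 1057, 1315 and 898 CPM in 129 rosi, against 791, 781, 807 and 1108 CPM in 129 control. Pnpla2 stood at 1027, 1269, 1249 and 1362 CPM in B6 rosi, against 447, 556, 469 and 506 CPM in B6 control. The rosi groups overlapped each other, and the B6 control libraries were the lowest (interaction -0.91 ± 0.20, adjusted p = 0.108). Gpd1, which makes glycerol phosphate, had log2 changes of 0.68 ± 0.18 in 129 and 1.36 ± 0.18 in B6 with no overlap in either strain (interaction -0.68 ± 0.25, adjusted p = 0.405). Mogat2, a monoacylglycerol acyltransferase, was the 1 member with a higher change in 129 at an unadjusted p under 0.05 (1.26 ± 0.36, adjusted p = 0.247). Of 17 de novo lipogenesis genes, 7 rose (7.09% of all genes) and 2 fell (5.34%) in B6. In 129 edgeR called 0, with 3 higher and 2 lower at an unadjusted p under 0.05, 1 lower with DESeq2 and 0 with limma voom. Acacb above was the 1 called interaction. Scd1, the stearoyl-CoA desaturase, was at 56127 ± 7760.1 CPM in 129 rosi and 69905 ± 11516 CPM in 129 control, and at 27008 ± 7415 CPM in B6 rosi and 16884 ± 2657 CPM in B6 control (mean ± SD, n = 4 each; interaction -0.99 ± 0.26, adjusted p = 0.197).

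Endothelial markers gave values in the other direction. All 17 passed the filter, and their mean log2(CPM + 1) was 5.57 to 5.78 in 129 rosi and 5.58 to 5.83 in 129 control, and 5.69 to 5.92 in B6 rosi and 6.13 to 6.32 in B6 control. The B6 control libraries were thus the high group, and the other 3 groups overlapped. In B6 8 of 17 fell (5.34% of all genes). In 129 the 3 tools called 0, with 1 higher (4.8% of all genes) and 2 lower (4.48%) at an unadjusted p under 0.05. Rosi and control libraries did not overlap for 1 in 129 (4.95% of all genes) and 9 in B6 (18.4%). The median log2 change was -0.03 in 129 and -0.45 in B6. edgeR called 0 interactions, with 7 higher in 129 at an unadjusted p under 0.05 (4.45% of all genes), while DESeq2 called 3 and limma voom 1. Tie1, an endothelial receptor kinase, had 35.5, 28.7, 40.0 and 38.6 CPM in 129 rosi, against 40.6, 31.4, 38.0 and 48.0 CPM in 129 control. Tie1 had 40.2, 48.2, 37.8 and 37.2 CPM in B6 rosi, against 88.5, 73.9, 74.5 and 86.5 CPM in B6 control. Its interaction was 0.84 ± 0.18 (adjusted p = 0.108), and that of Cdh5, the cadherin of endothelial junctions, 0.61 ± 0.17 (adjusted p = 0.234).

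Of 30 collagen and matrix genes, 11 fell (5.34% of all genes) and 2 rose (7.09%) in B6. In 129 edgeR called 1 as higher (0.181% of all genes) and 0 as lower. At an unadjusted p under 0.05, 2 were higher (4.8% of all genes) and 4 lower (4.48%). DESeq2 called 1 as higher and 1 as lower, and limma voom 1 as higher and 0 as lower. Rosi and control libraries did not overlap for 5 of the 30 in 129 (4.95% of all genes) and 8 in B6 (18.4%). The medians were -0.21 in 129 and -0.37 in B6. At an unadjusted p under 0.05, 7 interactions were higher (4.45% of all genes) and 1 lower (4.82%). After adjustment edgeR called 0 of the interactions, while DESeq2 and limma voom called 2 each, higher in 129. Col4a2, a collagen chain of basement membranes, stood at 958, 936, 960.3 and 1011 CPM in 129 rosi, against 1102, 1434, 957 and 1304 CPM in 129 control. It was at 953, 838, 908 and 793 CPM in B6 rosi, against 1978, 1634, 1867 and 1865 CPM in B6 control. Only the B6 control libraries stood clear of the rest, and the interaction was 0.76 ± 0.16 (adjusted p = 0.0829). Its partner chain Col4a1 had 0.65 ± 0.15 (adjusted p = 0.113), and Nid2, the linker protein nidogen of the same membranes, 0.84 ± 0.17 (adjusted p = 0.076). In B6 the endothelial markers fell along with Col4a1, Col4a2, Nid2, Rgs5 and Mylk. The markers summed to 1067 to 1327 CPM in B6 rosi and 1551 to 1752 CPM in B6 control. In 129 their sums overlapped, at 1077 to 1186 CPM in rosi and 1006 to 1188 CPM in control. There Col4a1, Nid2 and Rgs5 were lower with rosi with no overlap, while Col4a2 and Mylk overlapped. In F1 the median log2 change of the markers was 0.04. The genes had -0.76 (Col4a1), -0.57 (Col4a2), -1.755 (Nid2), -1.21 (Rgs5) and -0.03 (Mylk) there. None of the 17 markers was at 0 in a library, and their part in these results was not tested.

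Macrophage markers (30 of 31 tested) had mean log2(CPM + 1) values of 4.97 to 5.36 in 129 rosi and 5.05 to 5.42 in 129 control, and 5.24 to 7.004 in B6 rosi and 5.55 to 6.62 in B6 control. B6 rosi replicate 1 held the highest value, and it also held the highest Serpina3n and Hp of its group and the lowest fuel values. Their part in these results was not tested. With that library left out, edgeR called 54 interactions, and the difference of Serpina3n remained within the range given above. Within the macrophage list 1 gene fell in B6 (5.34% of all genes), and in 129 the 3 tools called 0, with 0 at an unadjusted p under 0.05. Of 30 PPAR and RXR receptors and coregulators, 1 rose in B6 (7.09% of all genes). In 129 the 3 tools called 0, with 1 lower at an unadjusted p under 0.05 (4.48% of all genes). Their medians were -0.06 in 129 and -0.03 in B6. Of their interactions edgeR called 0, while DESeq2 and limma voom called 1 each, lower in 129. At an unadjusted p under 0.05, 2 interactions lay lower (4.82% of all genes) and 0 higher (4.45%). edgeR, DESeq2 and limma voom called 0 interactions in the adipokine, circadian clock, insulin signalling, interferon and sphingolipid lists, each with at most 1 gene higher and 1 lower at an unadjusted p under 0.05.

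The summed level of mammary and skin epithelial markers lay higher in every 129 library than in any B6 library, where strain and lane cannot be told apart. Of 18 markers 9 passed the filter; 5 of the 18 had counts in every library, and the other 13 had none in 2 to 16 libraries. The list summed to 58.8 to 189 CPM in 129 rosi and 90.9 to 133 CPM in 129 control, and to 3.87 to 19.2 CPM in B6 rosi and 10.01 to 27.4 CPM in B6 control. The mean log2(CPM + 1) of the 9 tested markers overlapped between the strains. It was 1.24 to 3.28 in 129 rosi and 1.59 to 2.79 in 129 control, and 0.428 to 1.39 in B6 rosi and 0.764 to 1.51 in B6 control. Ripk4, a kinase of epidermal differentiation, took much of the sum, at 53.5, 53.8, 54.6 and 76.0 CPM in 129 rosi, against 96.0, 84.8, 79.3 and 95.1 CPM in 129 control. Ripk4 was at 1.09, 2.28, 1.66 and 0.648 CPM in B6 rosi, against 5.31, 15.8, 4.41 and 4.94 CPM in B6 control. The gap between the strains in the sum thus rested largely on this 1 gene. Groups of Ripk4 did not overlap in either strain (interaction 1.93 ± 0.53, adjusted p = 0.240). Over the 9 tested markers, rosi and control libraries did not overlap for 1 in 129 (4.95% of all genes) and 2 in B6 (18.4%). Trp63, the transcription factor p63 of basal epithelium, had an interaction of 2.67 ± 0.87 (adjusted p = 0.326), and Ripk4 and Trp63 both fell in B6. edgeR called 0 of the 9 interactions, while DESeq2 called 1 higher and limma voom 0. At an unadjusted p under 0.05, 2 were higher (4.45% of all genes) and 1 lower (4.82%). The lower was Krt10, a keratin, at -1.21 ± 0.55 (edgeR adjusted p = 0.517). The median interaction was 1.01, but -0.78 without 129 rosi replicate 3, 2.25 without B6 rosi replicate 2, 1.83 without 129 control replicate 4, and 0.63 without 129 control replicate 2 or B6 control replicate 1. The part of epithelial cells in the result for Lamb3, whose B6 groups also moved apart more than its 129 groups, was not tested.

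**Figure D4:**
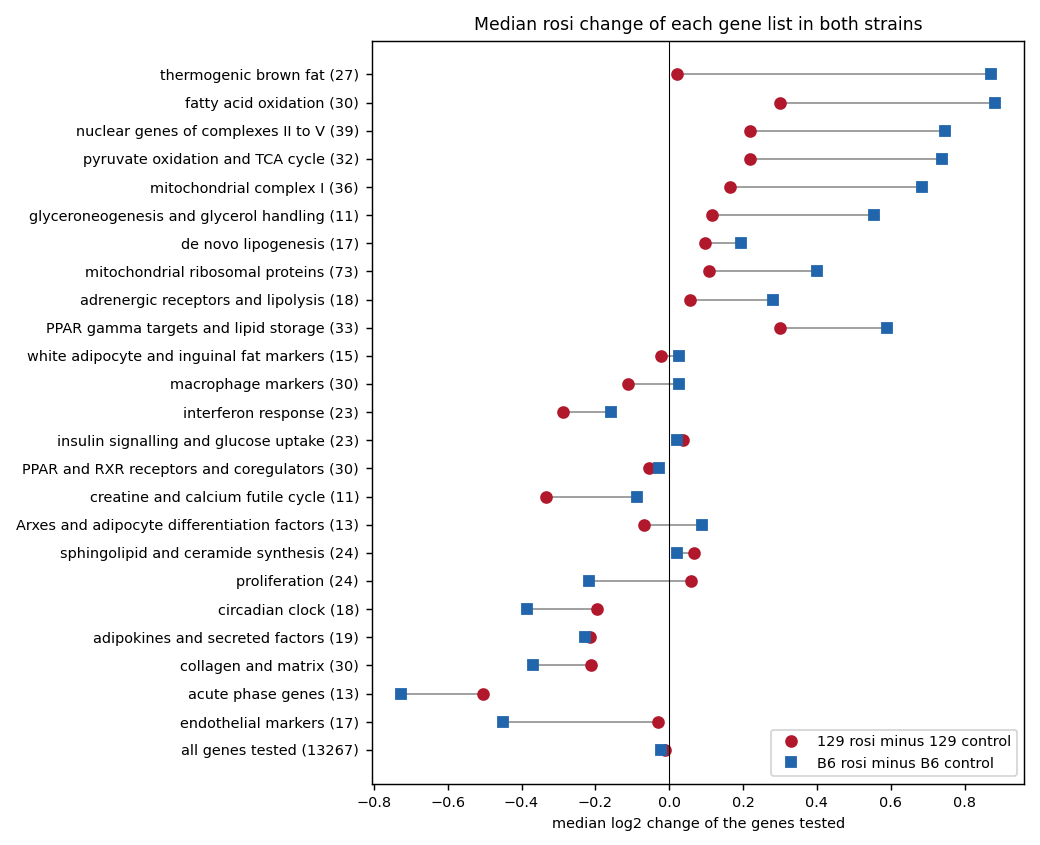
Median log2 change with rosi of the tested members of each gene list with 10 or more of them (number in brackets) in 129 (circles) and in B6 (squares), ordered by the median interaction, with all 13267 genes at the bottom; the skeletal muscle and lymph node lists are not drawn. Fuel and thermogenic lists have their B6 medians at 0.69 to 0.88 and their 129 medians at 0.02 to 0.30, and the endothelial list has -0.03 in 129 and -0.45 in B6.

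Genes with the lowest p in 129 were also called in B6. Arxes2, an adipocyte gene known as a PPAR gamma target, stood at 351, 368, 273 and 239.8 CPM in 129 rosi, against 153, 126, 130.5 and 147 CPM in 129 control. Arxes2 stood at 244, 305, 321 and 297 CPM in B6 rosi, against 134, 125, 144 and 125 CPM in B6 control. The strains overlapped, no rosi library overlapped its controls, and the log2 change was 1.14 ± 0.13 in each (interaction -0.0016 ± 0.18). Reads of Arxes2 and its copy Arxes1 are partly shared, at 40.1% of the 50-base stretches of Arxes2. Svep1, a large adhesion protein of the matrix, had 0.76 ± 0.10 in 129 and 0.47 ± 0.10 in B6, and Adcy5, an adenylate cyclase, 0.53 ± 0.09 in 129 and 0.48 ± 0.09 in B6. Sycp3, a protein of the meiotic chromosome axis, and the gene Gm4952 were the other 2 of the 5 genes with the lowest p among those that rose in 129. Of the 5 with the lowest p among those that fell there, Anxa8, an annexin, had -1.22 ± 0.18 in 129 and -1.77 ± 0.20 in B6, and Itgb5, an integrin subunit, -0.70 ± 0.12 in 129 and -0.77 ± 0.12 in B6. S100b, a calcium-binding protein, had -1.40 ± 0.21 in 129 and -1.44 ± 0.23 in B6. P2rx5, an ATP-gated channel in the list of beige fat markers, had -1.16 ± 0.19 in 129 and -1.53 ± 0.21 in B6. In F1, these last 2 genes rose, by 1.88 ± 0.53 and 0.69 ± 0.23 on the log2 scale, and the difference of F1 from the other strains, which also differ in diet and run, was not tested. Besides Trabd2b, none of the 10 genes with the lowest p in 129 had a called interaction (edgeR adjusted p of 0.565 to 1.0), which does not show that their changes were equal.

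Among the genes with the lowest p in B6, the interaction was called for Ephx2, Serpina3n, Trabd2b, Lamb3 and Rgs5 and not for Sptlc3, Chrna2, Mbnl3, Nabp1 and Nid2. Sptlc3, a serine palmitoyltransferase subunit, had 0.533, 2.06, 1.83 and 0 CPM in 129 rosi, against 0, 0, 0.125 and 0.408 CPM in 129 control. Sptlc3 had 49.0, 57.8, 42.6 and 64.3 CPM in B6 rosi, against 0.717, 0.736, 0.678 and 0.370 CPM in B6 control. The B6 rosi libraries were far above the rest, and 129 libraries held at most 14 counts, so the change in 129 is poorly fixed and the interaction of -3.73 ± 1.58 was not called (adjusted p = 0.474). Mbnl3, an RNA-binding splicing factor, had 7.64, 11.99, 22.7 and 14.6 CPM in 129 rosi, against 4.74, 5.29, 5.24 and 3.95 CPM in 129 control. Mbnl3 had 111, 173, 183 and 169 CPM in B6 rosi, against 19.6, 24.0, 15.4 and 25.8 CPM in B6 control. It rose in both strains with no overlap, by log2 1.59 ± 0.29 in 129 (adjusted p = 0.0283) and 2.90 ± 0.24 in B6 (interaction -1.31 ± 0.38, adjusted p = 0.250). Nabp1, a single-stranded DNA binding protein, had -0.92 ± 0.23 (adjusted p = 0.185).

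Genes chosen by their rosi change in F1, whose libraries are not among the 16, gave a description that rests on neither strain. In F1, edgeR called 4483 of 11859 genes (37.8%), 2217 higher (18.7%) and 2266 lower (19.1%). Of those raised, 2183 were tested in the 16 libraries, and their median log2 change was 0.11 in 129 and 0.31 in B6, with 83.5% of interactions below 0, against 50.9% of all genes. For the 488 tested genes raised in F1 by log2 1 or more, the medians were 0.22 in 129 and 0.66 in B6, and 88.5% of interactions lay below 0. Of these 488, 13 rose in 129 (0.181% of all genes) and 312 in B6 (7.09%). The median interaction of this set was -0.45, and between -0.53 and -0.37 with each library left out in turn.

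Genes lowered in F1 lay the other way with smaller values. The 2250 tested genes had medians of -0.13 in 129 and -0.23 in B6, with 69.8% of interactions above 0, against 49.1% of all genes. For the 689 lowered by log2 1 or more, the medians were -0.23 in 129 and -0.38 in B6. Of these 689, 10 fell in 129 (0.113% of all genes) and 191 in B6 (5.34%). Their mean log2(CPM + 1) was 4.44, 4.50, 4.48 and 4.67 in 129 rosi, against 4.85, 4.75, 4.77 and 4.71 in 129 control. It was 4.92, 4.24, 4.44 and 4.52 in B6 rosi, against 4.86, 4.96, 5.11 and 5.01 in B6 control. No 129 rosi library overlapped its controls, while B6 rosi replicate 1 lay within the control range of B6. Their median interaction was 0.15, and without B6 rosi replicate 1 it was 0.34.

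**Figure D5:**
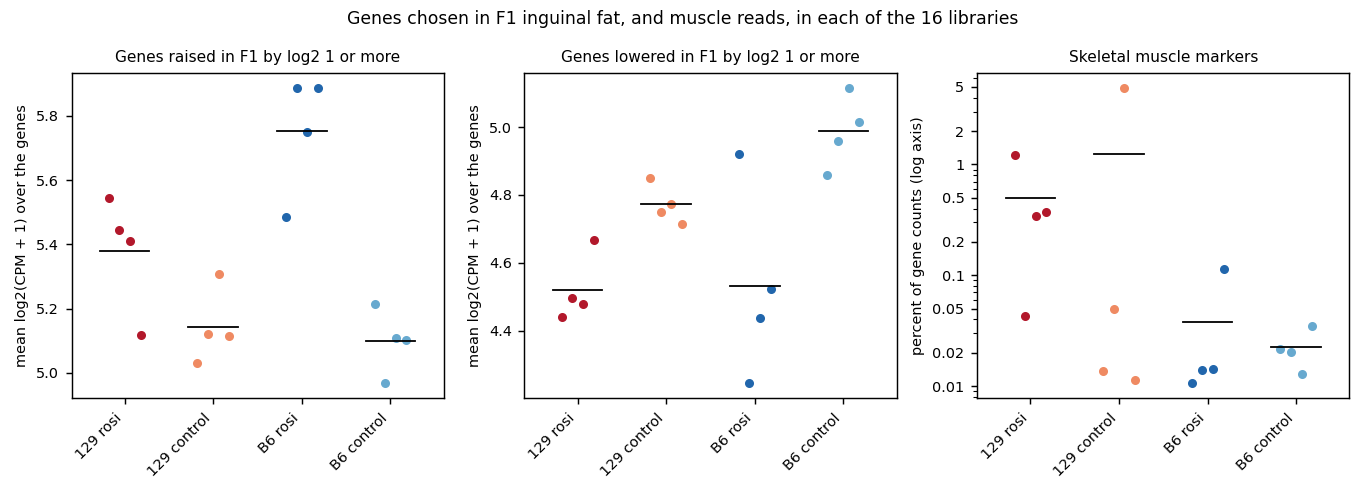
Mean log2(CPM + 1) in each of the 16 libraries over the 488 genes raised (left) and the 689 genes lowered (middle) by log2 1 or more in F1, and the share of counts in skeletal muscle markers on a log axis (right); points are libraries and bars are means of 4. In the left panel 129 rosi replicate 4, at 5.12, lies within the 129 control range of 5.03 to 5.31, and B6 rosi replicate 1, at 5.49, is the lowest of its group; in the right panel 129 control replicate 3 is at 4.89%.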

How the data were processed

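Total RNA of 16 inguinal fat libraries (and 10 of F1) was depleted of ribosomal RNA with Ribo-Zero and prepared with TruSeq, per the labels' protocols. The deposited counts per gene symbol were made by the authors with TopHat2 2.1.0, HTSeq and the build mm9, per the submitters' processing notes; annotation and strand setting are not given in the sources used here. How well reads of 129 align to a C57BL/6J genome was not tested. Tally lines were dropped: reads in no gene made up 29.3 to 39.6% and ambiguous reads 0.849 to 0.992%. F1 libraries held 3099737 to 4808947 counts.

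The interaction and both rosi changes came from 1 fit of the 16 libraries, and F1 from its own fit, with edgeR 4.0.16 (TMM, filterByExpr with a minimum count of 10, quasi-likelihood test, Benjamini-Hochberg, threshold 0.05) in R 4.3.3. CPM uses the TMM scaling, and list values are the mean log2(CPM + 1). Alternatives were DESeq2 1.42.0, limma 3.58.1 voom with quality weights, other scaling and filters, a replicate block, all 30 inguinal libraries, each strain alone and each library left out; leaving out both libraries rich in muscle reads was chosen after seeing the data. The tests were tested on simulated data.

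Named were Ucp1, Nnt as a check of labels, the called interactions (up to 15 each way) and the next by p up to 10 each way, up to 3 members a list with the lowest interaction p, and the 5 genes each way with the lowest p in each strain. Of list members only those with an unadjusted p under 0.05 are named, a limit added later. The members and lists were chosen with earlier results of these data known. Shared stretches of 50 bases were counted in GENCODE mouse transcripts, which may differ from the annotation behind the counts. The other fat depots, and inguinal groups on LFD of the 2 strains, were not used here except in the fit of 30. Some genes that the rule would name are not reported here.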

Additional observations from a re-analysis of the deposited data

Results flagged for a closer look

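The rosi change differed between the strains in a test of the difference itself (edgeR, adjusted p under 0.05) for 14 genes. On the log2 scale, 129 minus B6, the difference was 2.28 for Serpina3n, 2.36 for Serpina3m, 2.17 for Hp, 1.67 for Folh1, 1.64 for Ugt1a6b, 1.55 for Ugt1a6a, 1.40 for Lamb3, 1.40 for Trabd2b, 1.25 for Rgs5, 1.11 for Slc2a13, 0.90 for Brms1l, 0.79 for Mylk, -1.07 for Acacb and -1.61 for Ephx2.

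Single libraries stood apart from the other 3 of their group in 10 of 104 tests with Dixon's gap ratio. The tests covered several genes and scores in the same 4 groups. Chance gives about 1 in 20 for a single test. These tests share libraries, and most of their genes were chosen from these data, so that share is only a rough mark. Ucp1 in 129 control replicate 3 was at 169 CPM, against 17.8 to 26.6 CPM in the others (ratio 0.942). The same library held 4.89% of its counts in skeletal muscle markers (ratio 0.992) and was the low one for Ugt1a6b, at 18.7 CPM against 24.0 to 24.9 CPM (ratio 0.858). B6 rosi replicate 1 was the high library for Serpina3n, at 103 CPM against 54.1 to 55.4 CPM (ratio 0.973), and for Hp, at 859 CPM against 423 to 477 CPM (ratio 0.875). Hp also stood apart in 129 rosi replicate 4, at 1704 CPM (ratio 0.898), and in 129 control replicate 2, at 1893 CPM (ratio 0.886). Irs3 was high in 129 rosi replicate 1, at 44.0 CPM (ratio 0.890), Crat was low in 129 control replicate 2, at 273 CPM (ratio 0.830), and skeletal muscle markers were high in B6 rosi replicate 4, at 0.114% of counts (ratio 0.964).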

How the results depend on the processing

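Directions of the called genes and of Ucp1 held under all 24 alternatives. Those of the fuel lists held under the 22 for which list medians were taken, which leave out DESeq2 and limma voom. The numbers of calls did not hold. The interaction was called for 14 genes, and for 101 by DESeq2, 65 by limma voom, 7 with all 30 inguinal libraries in the fit, 26 without both libraries rich in muscle reads, and 1 to 54 with 1 library left out. For the rosi change in 129, with 39 calls, DESeq2 gave 157, the 8 libraries of 129 alone 14, and leaving out 1 library 5 to 105. For the change in B6, with 1650 calls, limma voom gave 2564 and leaving out 1 library 970 to 2087. The cause of these shifts was not tested.

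Replicate numbers did not pair the samples: correlations of deviations ran from -0.281 to 0.280. With the number as a replicate block, 2 interactions, 6 changes in 129 and 1314 in B6 were called. Depth limits genes at a few counts, such as Sptlc3 in 129.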
